A study of Arabidopsis thaliana with 4 samples.

Results

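The transcripts described here are those of the Arabidopsis thaliana leaf that were well expressed before treatment with probenazole (PBZ) and lower 72 h after it. PBZ is a plant defence activator given by the submitters so that the plants would raise their own level of salicylic acid. A probe set, the group of oligonucleotides that reports 1 transcript on the array, was taken as a member when its deposited signal was at or over 100 on both arrays before PBZ and the higher of its 2 signals after PBZ was at most 0.5 times the lower signal before it. Of 16319 probe sets, 2789 were at or over 100 on both arrays before PBZ, and 35 of these were members (1.25%). The platform annotation paired 18 of the 35 with 1 gene each and listed no gene for the other 17. The signals themselves chose the members, so the falls are given as a description, with no test.

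The plants were 5 weeks old, grown at 23 °C with 8 h of light a day, and the sampled leaves were rosette leaves 5 to 8, those with the clearest yellowing according to the submitters. Leaves taken before any treatment formed one group, and leaves collected 72 h after 0.5 mM PBZ was poured onto the roots the other, with 2 biological replicates each and 1 Affymetrix array per replicate. The labels name no ecotype, mutant or transgene. The samples include no leaves of the later time without PBZ, so the effects of PBZ, of 72 h of age and of anything else that differed between the samplings cannot be told apart.

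When a leaf turns from growth and photosynthesis to defence or senescence, part of its standing transcripts is replaced. Transcripts for the building and loosening of the wall, for the cuticle and for primary metabolism are usual among those that give way, while defence transcripts build up. Pectin-cleaving enzymes and acetyltransferases shape the polysaccharides of the wall, and lipid transfer proteins are small secreted proteins, many of which bind lipids and some of which help to build the cuticle. Papain-type cysteine proteases degrade proteins in the vacuole, the apoplast and the endoplasmic reticulum.

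The median signal was 19.2 and 27.6 on the arrays of before replicates 1 and 2, and 32.5 and 27.1 on those of after replicates 1 and 2. Before replicate 1 was thus the dimmest array, and the scaling between arrays is not stated in the labels. A member had to lie below its level on that array too. The median log2 change of the 2789 well expressed probe sets was 0.21, and it turned to -0.30 under quantile normalization, which gives all arrays the same distribution. Of the 37 markers listed for the leaf and for other cell types, 3 were in the table, and none of the 7 mesophyll markers was, so the tissue label could be checked only through other leaf transcripts. The antenna gene LHCB4.1 read 5555.8 and 7642.0 before PBZ and 6940.3 and 5878.5 after it. Of the 3 markers, the root hair expansin EXPA7 read between 0.7 and 13.6 on the 4 arrays. The phloem marker SWEET11 read 2008.7 and 1472.7 before PBZ and 1118.3 and 1342.5 after it, a log2 change of -0.49 with no overlap. The guard cell marker FMA is described below. In leaf RNA, fewer cells of a type and less RNA per cell cannot be told apart.

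**Figure D1:**
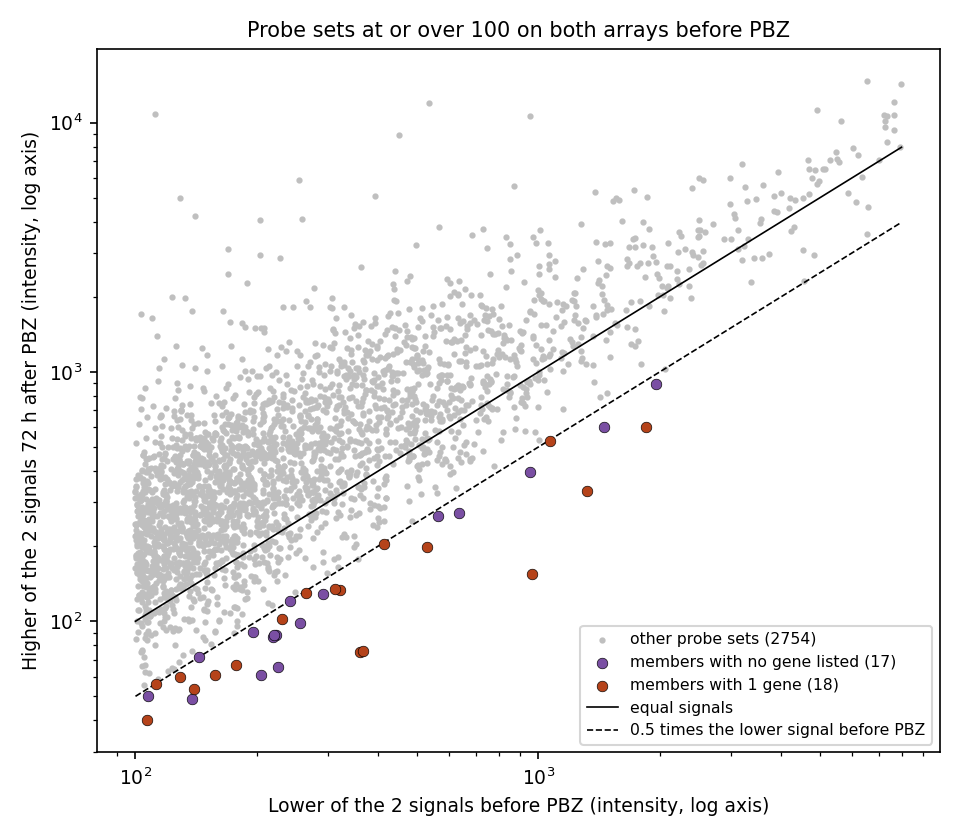
Each point is 1 of the 2789 probe sets at or over 100 on both arrays before PBZ, with the lower of its 2 signals before PBZ on the x axis and the higher of its 2 signals after PBZ on the y axis (intensity, log axes). The 35 members lie on or under the dashed line at 0.5 times the lower signal before PBZ, and AT2G27420, with 963.8 against 154.3, lies farthest below it.

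Among the same 2789 probe sets, the mirror image of the rule was met more often. In 147 (5.27%) the lower signal after PBZ was at least 2 times the higher signal before it. With no demand on size, both signals after PBZ lay below both before it in 433 probe sets (15.5%) and above both in 1002 (35.9%). These counts depend on the scaling. Under quantile normalization 172 probe sets met the rule and 85 its mirror image, of 3535 at or over 100 before PBZ, and with each array centred on its median 113 and 103 did, of 3327. All 35 members were among the 172 and among the 113.

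The members ranged from 2.25-fold to 11.6-fold lower, with a median of 3.29-fold (ratios of geometric means). Their median log2 change was -1.72 as deposited and -2.23 under quantile normalization. In 7 of the 35 the lower signal before PBZ was at least 3 times the higher signal after it. A limma fit of all 12239 probe sets bright enough to be tested called 30 lower (0.245%) and 653 higher (5.34%) at an adjusted p under 0.05. Of the 35 members, 16 were among the 30, and the other 14 of the 30 were 10 probe sets under 100 on an array before PBZ and 4 above it with a smaller ratio. Under quantile normalization the same fit called 278 of the 12239 probe sets lower, and with each array centred on its median 179. All 35 members were among those called under either scaling. The members were chosen on this contrast, so nothing is read from these counts.

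**Figure D2:**
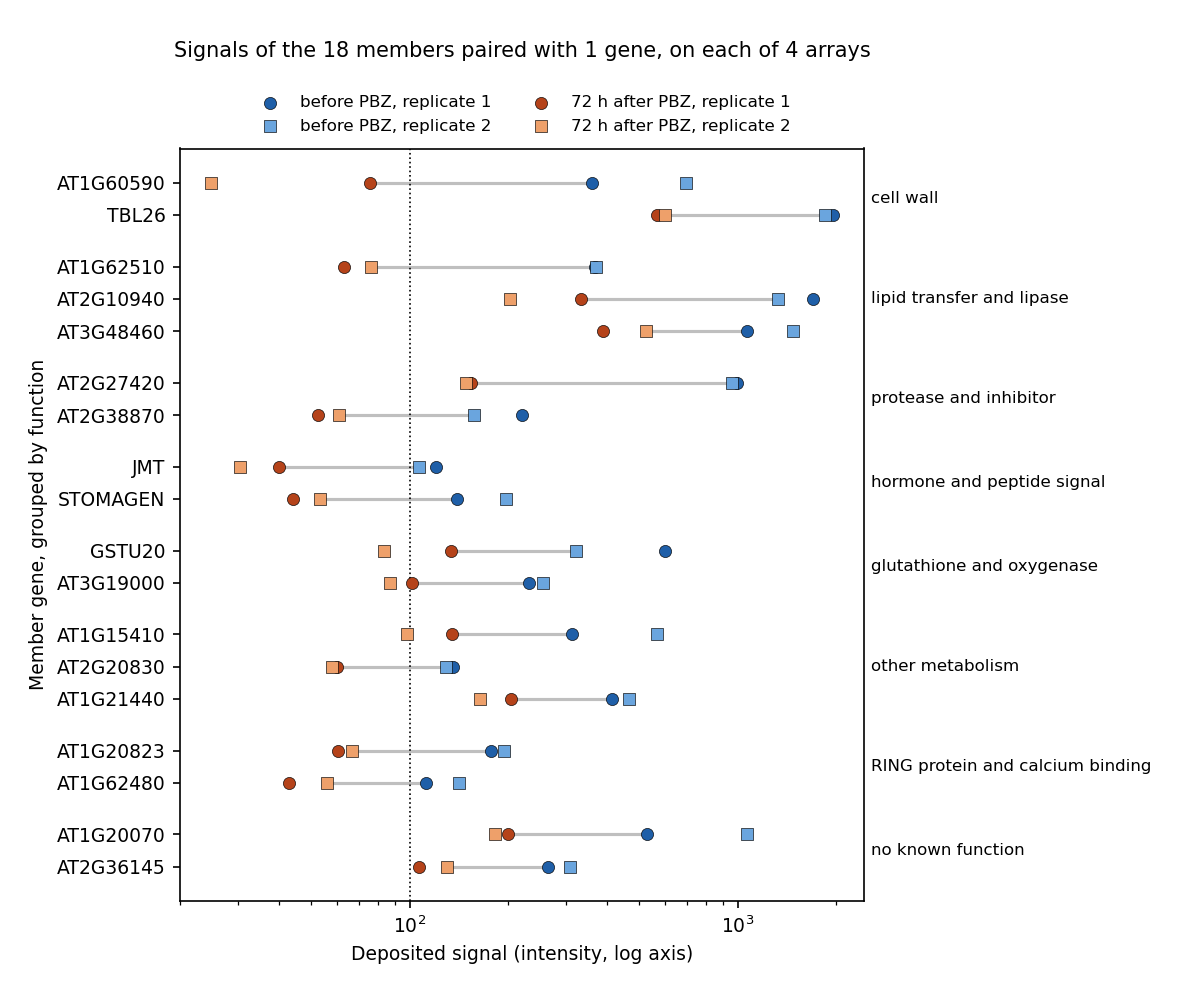
Deposited signals (intensity, log axis) of the 18 members paired with 1 gene, with 1 point per array, by function. Blue points are before PBZ and red or orange points 72 h after it (circles replicate 1, squares replicate 2), and the grey line spans the gap between the groups, which runs from 62.9 and 76.1 up to 367.2 and 368.6 for the lipid transfer protein AT1G62510. The dotted line marks the signal of 100 that the rule asked for before PBZ.

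Of the 18 members with a gene, 2 belong to the cell wall. AT1G60590 encodes a protein of the pectin lyase-like superfamily, which holds enzymes that cleave pectin. Its signal was 360.5 and 697.2 before PBZ and 75.5 and 24.8 after it, or 11.6-fold lower (log2 change -3.53 ± 0.60, standard error of the limma fit, 2 arrays per group). Its replicates were far apart in each group, 1.93-fold before PBZ and 3.04-fold after it, yet the lowest signal before PBZ was 4.77 times the highest after it. TBL26, of the trichome birefringence-like family, whose characterised members add acetyl groups to wall polysaccharides, had 1951.1 and 1848.2 before PBZ and 569.2 and 601.2 after it (3.25-fold lower, log2 change -1.70 ± 0.44). Here the replicates differed by 1.06-fold within each group.

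There were 3 members for lipid transfer and lipid hydrolysis. AT1G62510 and AT2G10940 are both of the lipid transfer and seed storage albumin superfamily. The signal of AT1G62510 was 367.2 and 368.6 before PBZ, almost the same on both arrays, and 62.9 and 76.1 after it (5.32-fold lower, log2 change -2.41 ± 0.55). For AT2G10940 the arrays before PBZ read 1700.5 and 1322.8 and those after it 331.9 and 201.9 (5.79-fold lower, log2 change -2.53 ± 0.49), with before replicate 1, the dimmest array, giving the highest of the 4 signals. The third, AT3G48460, encodes a lipase of the GDSL family, named for a motif at its active site. It read 1069.8 and 1474.9 before PBZ and 389.0 and 526.5 after it (2.78-fold lower), close to the limit of the rule at a ratio of 2.03.

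A protease and a protease inhibitor were both members. AT2G27420, a papain-type cysteine protease, had the highest ratio of all 35. Its signal was 998.4 and 963.8 before PBZ and 154.3 and 148.1 after it, so the lowest signal before PBZ was 6.25 times the highest after it (6.49-fold lower, log2 change -2.70 ± 0.51). Replicates lay within 1.04-fold of each other in each group. AT2G38870 belongs to the potato type I inhibitors, small proteins that block serine proteases, and read 219.3 and 157.4 before PBZ and 52.4 and 60.7 after it (3.29-fold lower, log2 change -1.72 ± 0.56). The reference used here gives no family name to papain-type genes, so they were not counted as a family, but 2 others at or over 100 before PBZ were higher after it and were named after their values were seen. AT4G01610, a cathepsin B-like protease, read 239.9 and 213.0 before PBZ and 748.7 and 1237.2 after it, a log2 change of 2.09 ± 0.51 (limma adjusted p = 0.00863). It did not pass without the intensity trend (0.153) or with an after array left out (0.0961 without replicate 1 and 0.451 without replicate 2, at log2 changes of 2.45 and 1.73). AT3G45310, of the papain type, read 112.6 and 182.7 before and 321.7 and 399.7 after. Its log2 change was 1.32 ± 0.54 (limma adjusted p = 0.183), or 0.74 under quantile normalization. How the remaining papain-type genes changed was not counted.

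JMT and STOMAGEN concern signals between cells and organs. JMT is the enzyme that makes methyl jasmonate, the volatile ester of jasmonic acid. Its signal was 120.4 and 107.1 before PBZ, just inside the rule, and 40.0 and 30.4 after it (3.26-fold lower, log2 change -1.70 ± 0.56). STOMAGEN (EPFL9) is a secreted peptide of the leaf mesophyll that raises the density of stomata in the epidermis of young leaves. It had 139.7 and 196.6 before PBZ and 44.2 and 53.4 after it, a level 3.41-fold lower (log2 change -1.77 ± 0.56).

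A few other genes of the same pathways were looked up, from no full list of them. Of the jasmonate genes these were OPCL1 and THI2.1, both tested. OPCL1, a ligase of jasmonate synthesis, read 105.0 and 134.1 before PBZ and 243.1 and 101.6 after it, so its groups overlapped. Its log2 change of 0.41 ± 0.58 turned to -0.12 under quantile normalization and to -0.22 when after replicate 1 was left out. THI2.1, a thionin that responds to jasmonate, was dim, at 5.0 and 1.8 before PBZ and 13.0 and 10.4 after it (log2 change 1.95 ± 1.31, limma adjusted p = 0.491). FMA (FAMA), the guard cell factor that acts late in the stomatal lineage, had 22.5 and 24.7 before PBZ and 28.9 and 35.5 after it (log2 change 0.44 ± 0.60, limma adjusted p = 0.779). FMA was the 1 guard cell marker of 5 listed that was in the table. STOMAGEN is made in the mesophyll, and 0 of the 7 mesophyll markers listed were in the table. The part of mesophyll cell number in its signal was therefore not tested.

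Another pair of members act on small molecules through glutathione or oxygen. GSTU20, a glutathione S-transferase of the tau class, which joins glutathione to reactive compounds, read 601.0 and 320.9 before PBZ and 133.8 and 83.3 after it (4.16-fold lower, log2 change -2.06 ± 0.56). Replicate 1 was the higher in both groups, by 1.87-fold before PBZ and 1.61-fold after it. AT3G19000 is an oxygenase of the superfamily that uses iron and 2-oxoglutarate, whose members act in hormone and specialised metabolism. Its signal was 231.2 and 255.0 before PBZ and 101.8 and 87.0 after it (2.58-fold lower, log2 change -1.37 ± 0.55).

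The members of other metabolism were 3. AT1G15410 is of the aspartate and glutamate racemase family and read 312.4 and 567.2 before PBZ and 134.8 and 98.1 after it (3.66-fold lower). AT1G21440 is of the family of phosphoenolpyruvate mutases and isocitrate lyases. It read 413.0 and 466.6 before PBZ and 204.1 and 164.3 after it (2.40-fold lower), with a ratio of 2.02 that barely met the rule. AT2G20830, a folate-binding transferase, had 135.9 and 129.3 before PBZ and 60.0 and 58.0 after it. At 2.25-fold it was the smallest of the 35 falls by means, though its replicates lay within 1.05-fold of each other in both groups.

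A RING finger protein and a calcium-binding protein were also members. AT1G20823 carries a RING finger, the domain of many ubiquitin ligases, and read 177.4 and 193.8 before PBZ and 60.6 and 66.8 after it (2.91-fold lower). AT1G62480, related to vacuolar calcium-binding proteins, read 112.3 and 140.9 before PBZ and 42.9 and 56.0 after it (2.57-fold lower) and met the rule at a ratio of 2.01. The remaining 2 have no function that could be given here. AT1G20070 read 529.3 and 1070.1 before PBZ and 198.7 and 181.8 after it, a 3.96-fold lower level despite before arrays that stood 2.02-fold apart. AT2G36145 had 264.4 and 308.6 before PBZ and 106.5 and 130.2 after it (2.43-fold lower).

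The 17 members with no gene listed covered a similar range, from 2.39-fold to 5.15-fold lower with a median of 3.38-fold. Their signals ran from 107.3 to 2692 before PBZ and from 19.4 to 891.7 after it. The highest ratios among them, 3.45 and 3.37, came from a probe set with 275.4 and 225.3 before PBZ and 65.3 and 53.9 after it, and from one with 205.0 and 429.4 before and 54.6 and 60.8 after. The widest gap between before arrays in any of the 35 was 3.62-fold, at 242.2 and 876.3, in an unnamed member that lay exactly on the limit of the rule, with 121.1 and 91.4 after PBZ.

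Replicates of the members lay closer together than those of the 2789 probe sets they came from. The arrays before PBZ were over 1.5-fold apart for 7 of the 35 (20%), against 47.7% of the 2789, and the median ratio of before replicate 2 to before replicate 1 was 1.09 for the members and 1.43 for the 2789. After PBZ, arrays over 1.5-fold apart made up 20% of the members and 33.9% of the 2789. The rule compares the lower signal before PBZ with the higher after it, which favours probe sets whose replicates lie close, so this is a property of the choice. None of the 35 probe sets was of the kind marked as shared between transcripts, against 4.98% of the 2789, and none of the 18 genes had another probe set in the table.

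The edges of the rule were not empty. Members with a ratio of 2 to 2.2 numbered 11, and 23 probe sets lay outside with a ratio between 1.8 and 2. The nearest with a gene were AT1G06830, with 177.4 and 175.3 before PBZ and 87.9 and 90.0 after it, the dehydrin gene COR47, with 486.2 and 631.5 before and 245.1 and 251.8 after, and AT4G38810, with 360.1 and 317.4 before and 165.1 and 118.9 after. Below the signal floor, AT3G54400 (91.4 and 125.0 before PBZ, 45.7 and 31.0 after it) and AT1G27030 (75.5 and 132.2 before, 35.0 and 27.4 after) met the ratio. With a floor of 50 there were 47 members and with a floor of 200 there were 25.

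**Figure D3:**
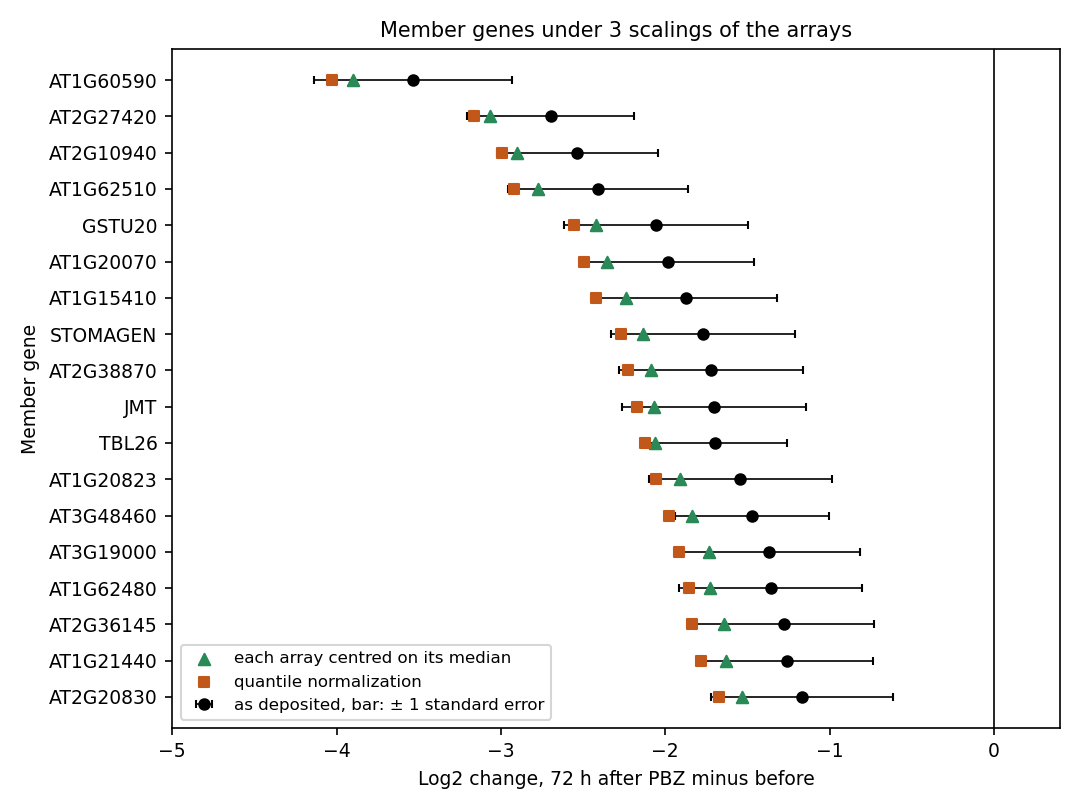
Log2 change of the 18 member genes, 72 h after PBZ minus before, as deposited (black points, bars of 1 standard error from the limma fit, 2 arrays per group), with each array centred on its median (triangles) and after quantile normalization (squares). Every gene lies below 0 under the 3 scalings, from -3.53 for AT1G60590 to -1.17 for AT2G20830 as deposited, and each lies lower under the other scalings.

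The scaling changed the size of the log2 change but not its direction. Over the 18 genes the log2 change lay between -3.53 and -1.17 as deposited and between -4.03 and -1.67 under quantile normalization. Over all settings tried, each array left out in turn among them, AT1G60590 lay between -4.34 and -2.73 and AT2G27420 between -3.16 and -2.67. The direction is set by the choice of members, whose groups do not overlap, so its persistence is no sign of stability.

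By position, 9 of the 18 genes lie on chromosome 1, 5 on chromosome 2, 2 on chromosome 3 and 2 on chromosome 4. As a share of the well expressed probe sets with a gene on each chromosome this is 2.16%, 2%, 0.595% and 0.922%. Chromosome 5 had 8 such probe sets in the table, against 416, 250, 336 and 217 on chromosomes 1, 2, 3 and 4, too few to say anything of it. Its genes were thus largely absent from the well expressed set, and the family counts given here hold few of them. AT1G62510 and AT1G62480 lie close together on chromosome 1, with 2 other protein-coding genes between them. Those 2, AT1G62490 and AT1G62500, read at most 14.5 on any array and were too dim to be tested.

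The genes next to the members were looked up in the order of the reference annotation, 2 protein-coding genes on each side. Of 37 such neighbours with a signal, 29 were tested, and by limma 0 were lower and 2 higher, where 0.223% of all 6725 genes tested were lower and 4.74% higher. Next to the member AT3G19000 lies AT3G19010, an oxygenase of the same superfamily, which went the other way. It read 71.9 and 156.4 before PBZ and 711.7 and 636.6 after it, a rise of 2.67 ± 0.55 in log2 by limma (adjusted p = 0.00174). The protease inhibitor AT2G38870 lies next to YLS5, a gene named for its expression in yellowing leaves, which read 108.2 and 126.7 before PBZ and 453.1 and 440.3 after it, a rise of 1.93 ± 0.54 in log2 (adjusted p = 0.0260). These neighbours were named after their values were seen.

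Neither call held under every alternative tried. Leaving out an array leaves 1 array in that group, which is then assumed to vary like the other group. AT3G19010 did not pass with an after array left out (limma adjusted p = 0.0948 without replicate 1 and 0.0542 without replicate 2), at log2 changes of 2.59 and 2.75, nor without the intensity trend (0.0974). YLS5 failed without the trend (0.161), with the replicate number as a block (0.0638), and when before replicate 1 (0.116) or either after array was left out (0.375 for replicate 1 and 0.344 for replicate 2). With these arrays left out its log2 change was 1.82, 1.91 and 1.95, so the size of the rise hardly moved. The scaling moved it more, to 1.36 under quantile normalization and 1.57 with each array centred on its median. Beside STOMAGEN, AT4G12980 read 275.1 and 398.7 before PBZ and 132.2 and 164.3 after it (log2 change -1.17 ± 0.54, adjusted p = 0.263). It passed the test under quantile normalization (adjusted p = 0.00986) and with each array centred on its median (0.0316).

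**Figure D4:**
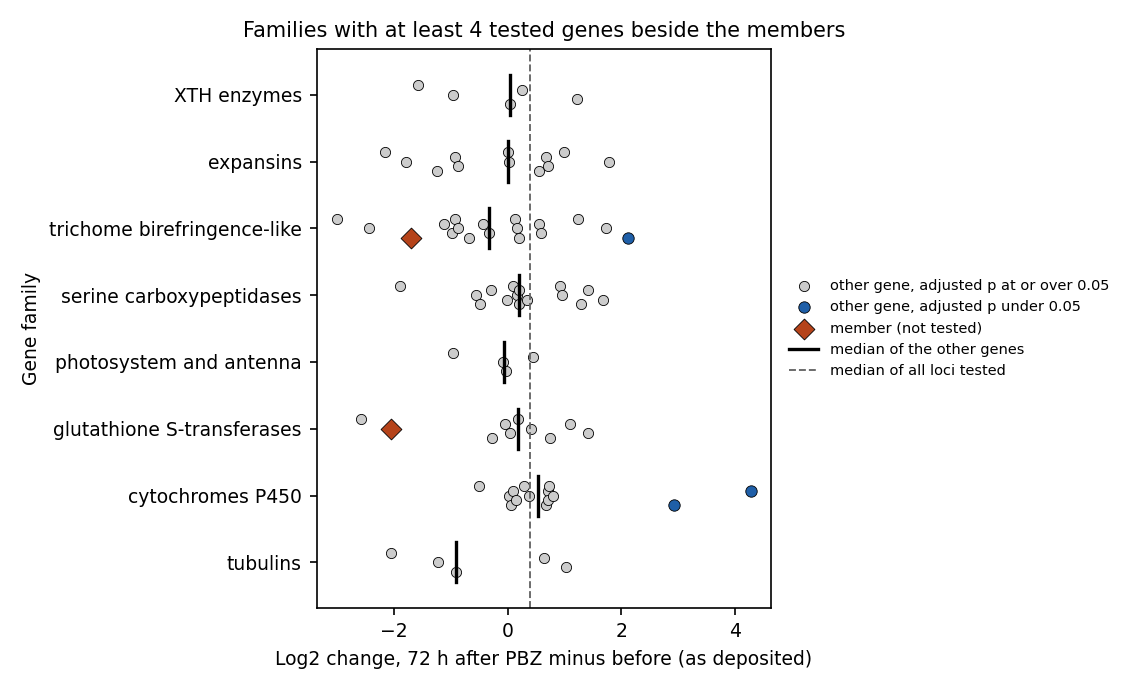
Log2 change (72 h after PBZ minus before, as deposited) of the tested genes in families with at least 4 tested genes that are not members. Grey points did not pass the limma test, blue points did, diamonds are the members TBL26 and GSTU20, black bars are family medians, such as -0.33 for the trichome birefringence-like genes, and the dashed line is the median of all genes tested, 0.39.

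The families looked up, those of the wall, of proteases, of plastid antennae, of detoxification, of tubulins and of others with 1 tested gene each, gave 89 tested genes beside the members. By limma 0 of the 89 were lower and 3 higher at an adjusted p under 0.05, against 0.223% and 4.74% of all 6725 genes tested. No gene was matched for lipid transfer proteins, GDSL lipases, papain-type proteases or aspartyl proteases. Among the members only TBL26 and GSTU20 were matched to a family, and AT1G60590 was not matched to the pectin lyase-like one. The 89 therefore do not cover the families of most members. At an unadjusted p under 0.05, 4 of the 89 were lower, against 1.71% of the 6725. The median log2 change was 0.12 over the 89 and 0.39 over all 6725 genes tested, and both were lower under quantile normalization, at -0.25 and -0.03. With that scaling 4 of the 89 passed as lower, against 1.78% of the 6725, namely the xyloglucan-modifying enzyme XTH32, the expansin EXPB3, the antenna gene LHCB4.3 and the tubulin TUB7.

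In the trichome birefringence-like family TBL26 was the only member. Of the 17 other tested genes 0 were lower by limma, 1 of them at an unadjusted p under 0.05, and 1 was higher. Their median log2 change was -0.33, or -0.64 under quantile normalization. The gene that passed was TBL35, with 8.2 and 16.8 before PBZ and 60.5 and 43.4 after it (log2 change 2.13 ± 0.63, adjusted p = 0.0420). Beside the deposited signals it passed with a pseudocount and without before replicate 2, and its adjusted p was 0.0538 under quantile normalization and, with 1 array left out, 0.284 for before replicate 1, 0.442 for after replicate 1 and 0.141 for after replicate 2, at log2 changes of 1.61, 1.89 and 2.37. The family members TBL25 (119.9 and 262.3 before PBZ, 189.7 and 206.4 after it) and TBL37 (147.5 and 137.7 before, 97.7 and 114.4 after), both at or over 100 before PBZ, had log2 changes of 0.16 ± 0.56 and -0.43 ± 0.55.

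Among the glutathione S-transferases, GSTU20 was the only member and 0 of the 9 other tested genes were lower or higher by limma, 0 of them lower at an unadjusted p under 0.05. Of these, 3 were at or over 100 before PBZ, and their log2 changes lay between -0.05 and 0.74. GSTU27 read 356.1 and 329.1 before PBZ and 306.6 and 357.5 after it (log2 change -0.05 ± 0.52), with overlapping groups. GSTU18 read 285.0 and 469.1 before and 470.7 and 501.8 after (0.41 ± 0.51), and GSTU16 read 174.1 and 269.1 before and 275.3 and 473.3 after (0.74 ± 0.54). Under quantile normalization GSTU18 turned to -0.16. The difference between GSTU20 and these genes was not tested, since GSTU20 was chosen for its fall.

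The xyloglucan enzymes and expansins, none of them members, did not pass the test as deposited. XTH32, which cuts and rejoins xyloglucan, read 655.0 and 1024.4 before PBZ and 343.8 and 509.7 after it, so its groups did not overlap (log2 change -0.97 ± 0.49, limma adjusted p = 0.319, and 0.0158 under quantile normalization). The xyloglucan enzyme EXGT-A3 read 344.8 and 267.9 before PBZ and 300.5 and 325.1 after it, with overlapping groups. Of the 12 expansins, proteins that loosen the wall, 0 passed and 1 was lower at an unadjusted p under 0.05. That gene, EXPB3, read 31.9 and 46.2 before PBZ and 8.2 and 15.1 after it (log2 change -1.79 ± 0.66, adjusted p = 0.127, and 0.0298 under quantile normalization). The medians of the 5 XTH genes and the 12 expansins were 0.04 and 0.01 as deposited and turned to -0.52 and -0.25 under quantile normalization.

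Of the other families, the 15 serine carboxypeptidase-like genes had a median log2 change of 0.20, which turned to -0.23 under quantile normalization. For the 4 photosystem and antenna genes matched, PSBW, LHCB4.1, LHCB4.2 and LHCB4.3, the median was -0.06, or -0.18 under quantile normalization. None of these 19 genes passed by limma, and 0 were lower at an unadjusted p under 0.05. The match missed the photosystem gene PSAE-1, whose lower signal before PBZ was 4973.3 and higher signal after it 5847. LHCB4.3 read 674.5 and 962.7 before PBZ and 439.3 and 392.0 after it (log2 change -0.96 ± 0.49), a ratio of 1.54 between the lower signal before and the higher after. Of the 5 tubulins, subunits of microtubules, 0 passed and 2 were lower at an unadjusted p under 0.05, TUB1 and TUB7, with a family median of -0.92. TUB7 read 69.3 and 84.3 before PBZ and 45.9 and 23.1 after it (log2 change -1.23 ± 0.57, adjusted p = 0.266). The cytochromes P450 matched and tested were genes of the CYP71B subfamily and CYP78A9, so they do not stand for the whole family. The 14 cytochromes P450 tested held the other 2 rises, CYP71B23 (log2 change 4.28 ± 0.57) and CYP71B24 (2.94 ± 0.59, adjusted p = 0.00142), and CYP71B24 did not pass without the intensity trend (0.0974) or with either replicate 1 left out (0.0586 for the before array, 0.127 for the after array, at log2 changes of 2.46 and 2.32).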

How the data were processed

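RNA of 4 leaf samples was hybridised to Affymetrix arrays as biotin-labelled cRNA, per the labels' protocols, and processed with GCOS, per the submitters' processing notes, which state neither version nor scaling here. As deposited, each value is a linear intensity, and 64 control rows were left out. The platform annotation paired 9685 probe sets with 1 gene and 356 with several, listed none for 6278, and 9647 matched a TAIR10.1 locus, used for names and gene order. Protein classes without a symbol come from general knowledge of Arabidopsis annotation.

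The deposited signals were taken as log2, with 2 zeros set to 0.1. Without 4080 dim probe sets (the lowest 0.25 by mean), limma 3.58.1 in R 4.3.3 (linear models moderated by eBayes with an intensity trend) tested after against before PBZ, 2-sided, with Benjamini-Hochberg adjustment over 12239 probe sets. The fit had 2 residual and 27.2 prior degrees of freedom. Arrays were 2 per group, which limits the precision. Genes were counted by their brightest probe set. On simulated data for after against before PBZ, over 12239 probe sets, the fit recovered 34 of 50 falls of 4 log2 units (68%). It recovered 13 of 50 falls of 2 log2 units (26%) and 2 of 50 of 1 (4%), with 5 false calls. Of 50 rises of 2 log2 units it recovered 27 (54%). In this simulation rises of that size were thus recovered more often than falls, and many falls were missed.

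Families were patterns matched to the reference's symbols and synonyms, and 12 of 26 found no tested gene. The genes named among the members were the 12 with the highest ratios, the top 3 of each function group and those at the edges of the rule, which came to all 18. Among other family genes those called lower, and up to 2 of each family called higher, were named, and further ones after their values were seen. Members, groups and lists were chosen with earlier results of these data known. The alternatives were quantile normalization, median centring, other dim filters, a pseudocount of 1.3, the replicate block, no intensity trend, other floors and folds, and each array left out in turn. Sequences were not used here.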

Additional observations from a re-analysis of the deposited data

How the results depend on the processing

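All 35 members kept a negative log2 change under every alternative tried. The number that met the rule was 172 under quantile normalization, 113 with each array centred on its median and 7 at a 3-fold ratio, and from 78 to 176 with an array left out (176 if before replicate 1 is missing, 159 if after replicate 1 is, and 78 if either replicate 2 is). Each of these but the 3-fold ratio held all 35, and leaving out an array loosens the rule by its construction. Limma called 278 probe sets lower under quantile normalization, 179 with median centring, 15 with no dim filter, 48 with the lowest 0.5 left out and 8 with no intensity trend, and from 12 to 38 with an array left out, against 30. Rises numbered 157 with no intensity trend and from 217 to 1136 with an array left out, against 653. Of the 89 other family genes, 4 were lower under quantile normalization, 3 with median centring and from 0 to 1 with an array left out, and 1 was higher with no intensity trend and from 1 to 5 with an array left out. OPCL1 turned to -0.12 under quantile normalization and lay between -0.22 and 1.03 with an array left out, the lowest without after replicate 1. With the replicate number as a block 29 probe sets were lower and 543 higher. Same-numbered arrays did not deviate together (r = -0.06 for both pairs, which 2 groups of 2 force to be equal), so the numbers are not taken to pair the samples. The cause of these differences was not tested. With 2 arrays per group and no counts, no interval for a single signal can be given.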

Other observations

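Quantile normalization brought a further 137 probe sets under the rule, of which 77 also met it with each array centred on its median. In all 137 both deposited signals after PBZ lay below both before it, and 27 were under 100 on an array before PBZ as deposited. Among all probe sets at or over 100 on both arrays before PBZ, 15.5% had such signals. The 137 were chosen for their fall on scaled values of the same arrays. Their lack of overlap as deposited is therefore largely set by the choice, and nothing is read from it. Of the 137, 55 were paired with 1 gene. Of these 55, 10 carry a symbol, and 4 of the 10 act at the wall. The genes without a symbol were not sorted by function. The share of wall genes among all well expressed genes was not counted either, so nothing is read from the 4. GH9C2, an endoglucanase of glycosyl hydrolase family 9, read 348.4 and 697.8 before PBZ and 167.3 and 199.2 after it, with a log2 change of -1.43 as deposited. CSLC5, a synthase of the xyloglucan backbone, read 95.6 and 166.7 before PBZ and 74.8 and 58.0 after it, XTH32 is described above, and SKU5, a wall-associated protein of directional growth, read 83.0 and 118.7 before and 75.9 and 47.9 after.

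The other 6 with a symbol act in metabolism, light harvesting and stress. PMEAMT, which methylates phosphomethylethanolamine on the way to choline, read 1373.9 and 1681 before PBZ and 914.2 and 484.5 after it. Its log2 change was -1.19 as deposited and -1.57 under quantile normalization. AAH, which releases nitrogen from allantoate in purine breakdown, read 224.3 and 382.1 before and 144.4 and 108.7 after. COR47, LHCB4.3, the thylakoid ascorbate peroxidase TAPX and the glucosyltransferase UGT76E11 made up the rest, with log2 changes from -1.16 to -0.66 as deposited. These genes were chosen by the rule on the quantile-normalized values of the same arrays, so no test of them is given here. XTH32 and LHCB4.3 were tested above as genes of their families. AT4G12980, also brought in by quantile normalization, was tested above as a neighbour of STOMAGEN. Nothing further is read from those tests.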
